A study of Mus musculus with 26 samples.

Results

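A set of 10 genes that detect or handle foreign and misplaced nucleic acid was followed through the insulin receptor (IR) series: *Ifih1*, *Dhx58*, *Tlr3*, *Mavs*, *Cgas*, *Sting1*, *Zbp1*, *Eif2ak2*, *Adar*, and *Trex1*. They were chosen by symbol for their known role, with no measured value in the rule, but with earlier results of these data known. They make up 10 of the 52962 genes counted. Every one of the 10 had counts and passed the filter on low values (above 0.5 CPM, the count scaled to library size, in at least 4 libraries), as did 15402 genes in all.

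RNA sequencing was done on mouse brown preadipocytes, fibroblast-like precursors of brown fat cells, in 26 libraries that form 9 groups. All cells derive from newborn mice with floxed IR and IGF1R alleles, were immortalized with SV40 T-antigen under puromycin, and lost both receptors to a GFP-tagged Cre delivered by adenovirus, after which GFP-positive cells were sorted. These double knockout cells (DKO) were sequenced in the basal state only, in 3 libraries, and whether they had received the empty vector is not given in the sources used here. The other lines are DKO cells transduced with retrovirus for a FLAG-tagged human receptor of the B isoform and selected with hygromycin. IR cells carry the full-length receptor and K1030R cells a kinase-dead one. ∆CT cells carry a receptor without the last 79 residues, and JMO cells one that keeps only 36 juxtamembrane residues of the intracellular part. Each of these 4 lines was sequenced basal and after 100 nM insulin for 15 min, in 3 libraries per group and 2 for ∆CT with insulin, and all cells had been kept without serum for 6 h. Every receptor stands for a single transduced line, and nothing in the labels says that the replicates were separate cultures. The p-values therefore measure only the spread between these libraries, and the receptor and its line cannot be told apart.

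Cells keep receptors for nucleic acid in the cytosol and in endosomes as an alarm for viral infection. MDA5 (*Ifih1*) binds long double-stranded RNA and signals through the mitochondrial adaptor MAVS. TLR3 binds double-stranded RNA in endosomes, and cGAS answers cytosolic DNA with a cyclic dinucleotide that activates STING. These routes end in type I interferon, and many of the sensor genes are themselves interferon-induced, so that their transcript levels are commonly read as part of the interferon program.

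Library totals ran from 17228982 to 24694828 counts. The preadipocyte markers *Pdgfra*, *Pdgfrb*, *Col1a1*, *Col3a1*, *Thy1*, *Cd34*, and *Ly6a* were present in all libraries, whereas *Ebf2* stayed between 0.0464 and 0.413 CPM and *Dlk1* was at 0 in 11 libraries. The summed CPM of the 9 preadipocyte markers was 5040 to 5410 in DKO and 5280 to 5330 in basal JMO cells, against 8230 to 11400 in the other basal lines, which follows the collagen transcripts. Other markers did not follow the sum. *Ly6a* averaged 44.9 CPM in DKO, 10.7 in basal JMO, and 2.9 to 4.51 in the other basal lines. *Thy1* averaged 6.63 CPM in DKO and 21.8 to 28.8 in the basal receptor lines, JMO included, and *Pdgfrb* 559 to 630 in all basal groups. Of the 7 leukocyte markers, *Adgre1* was at 0 in all libraries, and the summed level in basal libraries was 3.7 to 4.82 CPM in DKO and 3.01 to 3.57 in JMO cells, and in IR, K1030R, and ∆CT cells 2.6 to 2.82, 2.77 to 3.2, and 2.69 to 3.13. The part of the preadipocyte markers in the results was not tested. Mouse *Insr* averaged 23.8 CPM in DKO and 67.7 to 78.4 CPM in the other basal groups, and whether reads of the human transgene were assigned to it was not tested. *Igf1r* averaged 27.1 CPM in DKO and 30.1 to 35.1 CPM in the other basal groups, so counts of both targeted genes remained in DKO cells. The study reported neither receptor in DKO cells by qPCR or immunoblot. The series has no library of cells with both receptors intact, so no level from such cells is at hand for comparison. Basal ∆CT replicate 3 stood apart from its group: 9 of the 10 sensor genes lay above the group mean there, by a median of 0.28 on the log2 scale over the 10, so comparisons with basal ∆CT cells are also given without it.

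Interferon acts on its target genes through the interferon-stimulated response element (ISRE) and the gamma-activated site (GAS). RefSeq promoter windows (GRCm38.p6, 250 bases before to 50 after each start) were at hand for 7 of the 10 genes, and not for *Dhx58*, *Sting1*, and *Zbp1*. They were searched on both strands for an ISRE core, GAAANNGAAA, and a GAS element, TTCNNNGAA. The ISRE core occurs in 3.44% and the GAS element in 8.3% of all 32851 windows. Counted by gene, 3.99% and 9.55% of 27025 genes have it in at least 1 window. The windows of *Ifih1* and *Eif2ak2* held an ISRE core just after the start, and those of *Eif2ak2* and of the third start of *Adar* a GAS element. All 4 matches found are shown, each as a stretch of 30 bases with the motif in capitals.
*Ifih1* ISRE, bases 33 to 42 after the start, chr2:62646206-62646235, minus strand: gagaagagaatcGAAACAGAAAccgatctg
*Eif2ak2* ISRE, bases 19 to 28 after the start, chr17:78882535-78882564, minus strand: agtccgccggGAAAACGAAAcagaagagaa
*Eif2ak2* GAS, bases -178 to -170 from the start, chr17:78882731-78882760, minus strand: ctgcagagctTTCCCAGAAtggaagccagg
*Adar* GAS, bases 23 to 31 after the third start, chr3:89730730-89730759, plus strand: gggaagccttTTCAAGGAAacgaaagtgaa
Neither motif was found in the windows of *Tlr3*, *Mavs*, *Cgas*, and *Trex1*, nor in the other 2 of *Adar*. Of these, *Tlr3*, *Cgas*, and *Trex1* differed between the lines as well. A match describes letters only.

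IR, K1030R, and ∆CT are the lines with a full-length or nearly full-length intracellular receptor part. In the basal state, with no minimum fold, 7 of the 10 genes were called lower than in DKO cells in IR cells. In K1030R and in ∆CT cells 8 were called lower, the same genes in both. That test called 24.1%, 20.4%, and 22.9% of all genes lower in IR, K1030R, and ∆CT cells. JMO cells stayed near DKO for all of these 8 genes but *Zbp1* and, by a small margin, *Cgas*. *Mavs* and *Sting1*, the signaling hubs below the sensors, moved little. The plot of CPM by library shows the steps for each gene. Adjusted p-values below come from quasi-likelihood tests in edgeR, adjusted by the Benjamini-Hochberg procedure over the 15402 genes, and a gene is said to pass the 1.5-fold test where edgeR's test against a minimum fold of 1.5 gave an adjusted p under 0.05. In a bulk sample, fewer expressing cells and less RNA per cell cannot be told apart.

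**Figure D1:**
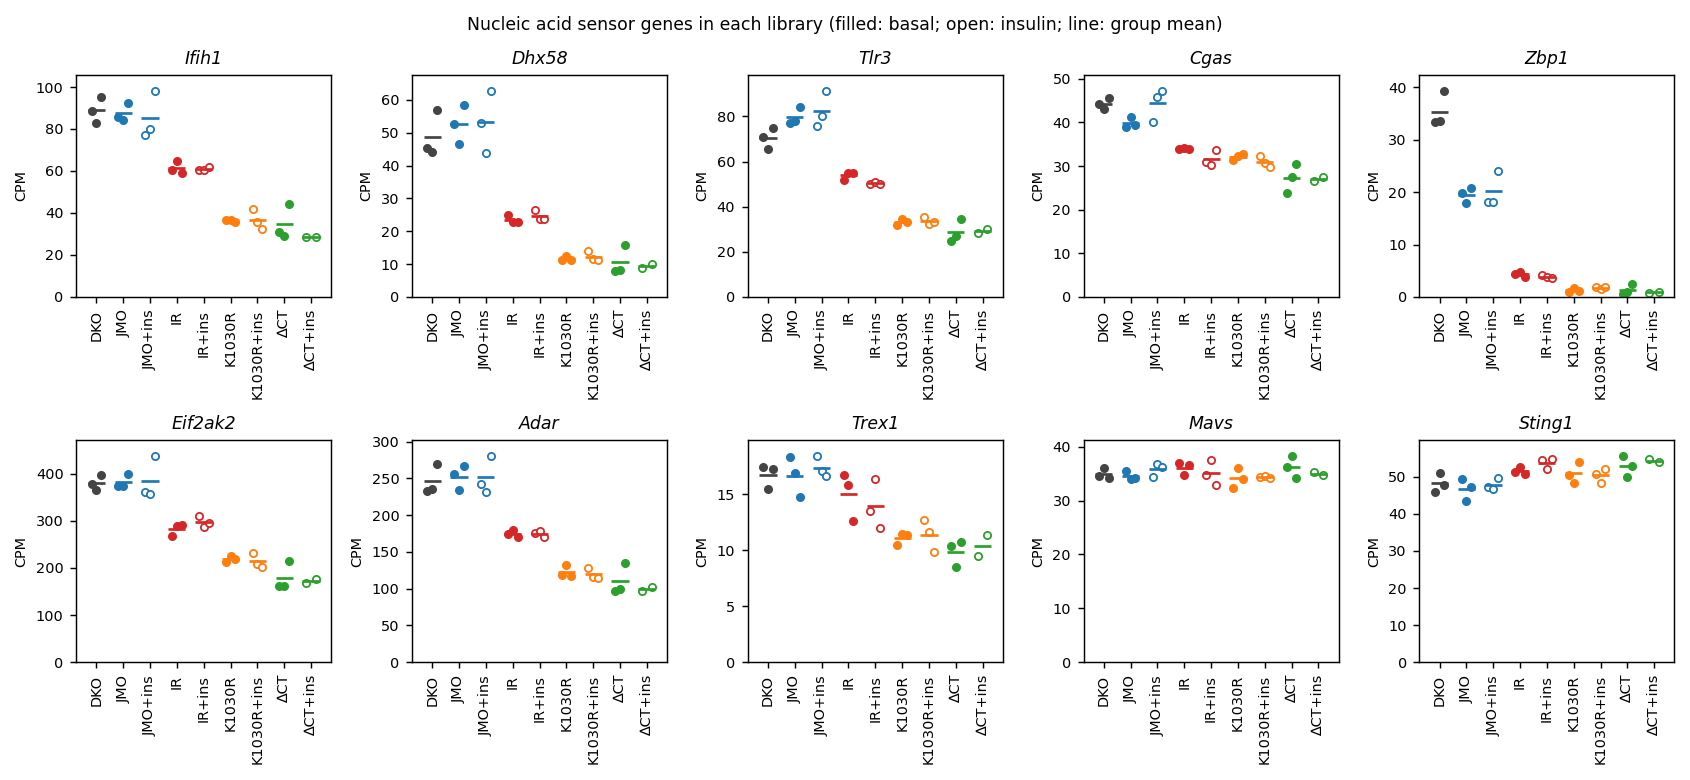
CPM of the 10 genes (vertical axes, from 0, TMM-scaled) in each of the 26 libraries, by group along the horizontal axes, where "+ins" marks 15 min of insulin, filled points are basal and open points insulin libraries, and lines are group means. *Zbp1* falls from 33.3–39.3 CPM in DKO libraries to 3.75–4.67 in basal IR and 0.617–2.38 in basal ∆CT libraries, whereas *Mavs* and *Sting1* are nearly level.

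*Zbp1* (ENSMUSG00000027514, chr2:173206612-173218923, GRCm38, minus strand) showed the widest change. Its protein binds left-handed Z-form nucleic acid and can start necroptosis through RIPK3. It was at 33.3, 33.5, and 39.3 CPM in the 3 DKO libraries and at 19.9, 17.9, and 20.8 CPM in JMO cells. IR cells had 4.44, 4.67, and 3.75 CPM, K1030R cells 1.01, 1.66, and 1.14 CPM, and ∆CT cells 0.617, 0.849, and 2.38 CPM. All libraries of IR, K1030R, and ∆CT cells lay far below the JMO libraries, and the JMO libraries lay wholly below DKO. The level was 8.27-fold lower in IR than in DKO cells (log2 difference -3.05, 95% interval -3.41 to -2.68, edgeR adjusted p = 3.52e-12), 27.5-fold lower in K1030R (log2 -4.78, adjusted p = 9.69e-14), and 28-fold lower in ∆CT (log2 -4.81, adjusted p = 5.92e-14). JMO cells were 1.81-fold below DKO (log2 -0.86, interval -1.16 to -0.56, adjusted p = 7.79e-05), a difference that did not pass the 1.5-fold test (adjusted p = 0.301). Without ∆CT replicate 3, the other 2 ∆CT libraries averaged 0.733 CPM and the log2 difference from DKO was -5.59. These ∆CT levels rest on few reads, 76 counts over 3 libraries, and the K1030R levels on 72, where DKO cells had 2185.

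The RNA helicases came next. *Dhx58* (ENSMUSG00000017830, chr11:100694884-100704271, minus strand) encodes LGP2, which resembles MDA5 but lacks the signaling domains and tunes its activity. DKO libraries had 45.4, 44, and 56.9 CPM and JMO libraries 52.8, 46.6, and 58.4 CPM. The level was 24.8, 22.9, and 22.7 CPM in IR cells, 11.1, 12.6, and 11.3 CPM in K1030R cells, and 7.97, 8.14, and 15.9 CPM in ∆CT cells. JMO and DKO overlapped and the other lines did not reach them. Against DKO, *Dhx58* was 2.09-fold lower in IR (log2 -1.06, interval -1.42 to -0.70, edgeR adjusted p = 3.86e-05), 4.2-fold lower in K1030R (log2 -2.07, adjusted p = 5.69e-08), and 4.64-fold lower in ∆CT cells (log2 -2.21, adjusted p = 1.93e-08, and log2 -2.61 without ∆CT replicate 3). In JMO cells the log2 difference was 0.10, with an interval from -0.23 to 0.43. An antisense gene on the other strand, *Dhx58os*, shares 2637 bases with it and had 85 counts over all libraries.

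*Ifih1* (ENSMUSG00000026896, chr2:62595798-62646255, minus strand) was at 88.4, 83, and 95.1 CPM in DKO and 85.9, 84.2, and 92.3 CPM in JMO libraries. IR cells had 60.7, 64.7, and 58.8 CPM, K1030R cells 36.8, 36.8, and 35.8 CPM, and ∆CT cells 30.8, 28.9, and 44.5 CPM. The order was thus DKO and JMO, then IR, then K1030R and ∆CT, with overlap inside the first and last pair. IR cells were 1.45-fold below DKO (log2 -0.54, interval -0.78 to -0.30, edgeR adjusted p = 0.000679), short of the 1.5-fold test. K1030R cells were 2.44-fold (log2 -1.29, adjusted p = 7.96e-08) and ∆CT cells 2.57-fold below DKO (log2 -1.36, adjusted p = 2.9e-08, and log2 -1.58 without ∆CT replicate 3). JMO cells differed from DKO by -0.03 on the log2 scale, with an interval from -0.26 to 0.21.

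*Mavs* (ENSMUSG00000037523, chr2:131234063-131248025, plus strand), the adaptor that MDA5 engages on mitochondria, stayed between 32.3 and 38.2 CPM in every library, basal or insulin. Group means in the basal state were 34.9 CPM for DKO, 34.6 for JMO, 36.1 for IR, 34.1 for K1030R, and 36.2 for ∆CT. The log2 differences from DKO were -0.03 in K1030R, -0.01 in JMO, 0.05 in IR, and 0.06 in ∆CT cells (lowest edgeR adjusted p = 0.412), and their 95% intervals lay within -0.14 to 0.16.

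*Tlr3* (ENSMUSG00000031639, chr8:45395665-45411080, minus strand), the endosomal receptor for double-stranded RNA, followed the helicases. It had 70.8, 65.6, and 74.8 CPM in DKO and 77.2, 78.2, and 84 CPM in JMO libraries. The values were 51.8, 55, and 54.9 CPM in IR cells, 32.1, 34.4, and 33.4 CPM in K1030R cells, and 24.8, 26.9, and 34.4 CPM in ∆CT cells. Here the JMO libraries lay just above all DKO libraries, though the log2 difference of 0.18 (interval 0.02 to 0.33) had an edgeR adjusted p of 0.0736. IR cells were 1.31-fold (log2 -0.39, adjusted p = 0.000201), K1030R cells 2.12-fold (log2 -1.08, adjusted p = 3.03e-10), and ∆CT cells 2.47-fold below DKO (log2 -1.30, adjusted p = 1.14e-11, and log2 -1.45 without ∆CT replicate 3).

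Among the DNA sensing genes, *Cgas* was lower in all 4 receptor lines, *Trex1* in K1030R and ∆CT cells, and *Sting1* in none. *Cgas* (ENSMUSG00000032344, chr9:78430526-78443237, minus strand) had 44.2, 43, and 45.5 CPM in DKO and 39, 41.2, and 39.4 CPM in JMO libraries. It was at 34, 34.2, and 33.8 CPM in IR, 31.4, 32.3, and 32.8 CPM in K1030R, and 23.8, 27.6, and 30.5 CPM in ∆CT cells. The 5 groups did not overlap with each other, though K1030R against IR cells was not called (log2 -0.08, edgeR adjusted p = 0.38). How many of all genes separate in this way was not computed. The differences were small, and 1.3-fold below DKO in IR (log2 -0.38, edgeR adjusted p = 2.85e-06), 1.38-fold in K1030R (log2 -0.46, adjusted p = 1.74e-07), 1.63-fold in ∆CT (log2 -0.70, adjusted p = 2.17e-11), and 1.11-fold in JMO cells (log2 -0.15, adjusted p = 0.0472). None of them passed the 1.5-fold test, and the JMO call was lost when any of 5 of the 6 libraries was left out (highest adjusted p = 0.17) and in DESeq2. Without ∆CT replicate 3, *Cgas* passed the 1.5-fold test in ∆CT cells (log2 -0.79, adjusted p of that test = 0.00729).

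*Sting1* (ENSMUSG00000024349), the receptor for the cyclic dinucleotide, had group means of 48.3 CPM for DKO, 46.7 for JMO, 51.6 for IR, 50.9 for K1030R, and 52.8 for ∆CT, with libraries from 43.5 to 55.5 CPM. The groups overlapped with DKO throughout. ∆CT cells were 1.09-fold above DKO (log2 0.13, interval 0.03 to 0.23, edgeR adjusted p = 0.0312), and this call was lost without ∆CT replicate 1 or 3 or DKO replicate 1 or 3 (highest adjusted p = 0.188), in DESeq2, and in a model of only these groups.

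*Trex1* (ENSMUSG00000049734, chr9:109057933-109059734, minus strand) encodes an exonuclease that clears cytosolic DNA. All of its 1802 bases lie inside *Atrip* on the same strand, a gene with 10461 counts, so its counts depend on how reads were split between these genes. It had 17.4, 15.5, and 17.3 CPM in DKO, 18.3, 16.9, and 14.8 CPM in JMO, and 16.7, 15.8, and 12.6 CPM in IR libraries, which overlapped with each other. K1030R libraries had 10.5, 11.5, and 11.4 CPM and ∆CT libraries 10.4, 8.49, and 10.7 CPM, below all others. The log2 difference from DKO was -0.16 for IR (interval -0.39 to 0.08, edgeR adjusted p = 0.27), -0.59 for K1030R (adjusted p = 0.000191), and -0.77 for ∆CT (adjusted p = 5.47e-06, and log2 -0.83 without ∆CT replicate 3), and none passed the 1.5-fold test.

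*Eif2ak2* and *Adar* encode proteins that meet double-stranded RNA after it is made. PKR, from *Eif2ak2* (ENSMUSG00000024079, chr17:78852564-78882573, minus strand), halts translation by phosphorylating eIF2 alpha, and ADAR edits adenosine to inosine and so marks self RNA. *Eif2ak2* was at 378, 365, and 398 CPM in DKO and 374, 374, and 400 CPM in JMO libraries. It had 267, 289, and 291 CPM in IR, 213, 225, and 220 CPM in K1030R, and 162, 161, and 215 CPM in ∆CT cells. DKO and JMO overlapped, all IR libraries lay below them, and ∆CT replicate 3 alone reached the K1030R range. The log2 difference from DKO was -0.43 for IR (edgeR adjusted p = 0.000719), -0.80 for K1030R (adjusted p = 1.29e-06, 1.74-fold), and -1.09 for ∆CT (adjusted p = 1.84e-08, 2.12-fold, and log2 -1.24 without ∆CT replicate 3). ∆CT cells passed the 1.5-fold test and K1030R cells did not (adjusted p of that test = 0.0813). JMO cells differed by 0.01, with an interval from -0.19 to 0.20.

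*Adar* (ENSMUSG00000027951, chr3:89715022-89753446, plus strand) had 233, 236, and 270 CPM in DKO and 256, 234, and 267 CPM in JMO libraries. The values were 175, 180, and 170 CPM in IR, 118, 132, and 117 CPM in K1030R, and 97.4, 98.9, and 135 CPM in ∆CT cells. JMO and DKO again overlapped, and every library of the other lines was lower. The log2 difference from DKO was -0.49 for IR (1.41-fold, edgeR adjusted p = 0.000475), -1.01 for K1030R (2.01-fold, adjusted p = 2.31e-07), and -1.16 for ∆CT (2.23-fold, adjusted p = 2.86e-08, and log2 -1.33 without ∆CT replicate 3). *Chrnb2* overlaps 7252 of its bases on the other strand and had 263 counts in all.

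**Figure D2:**
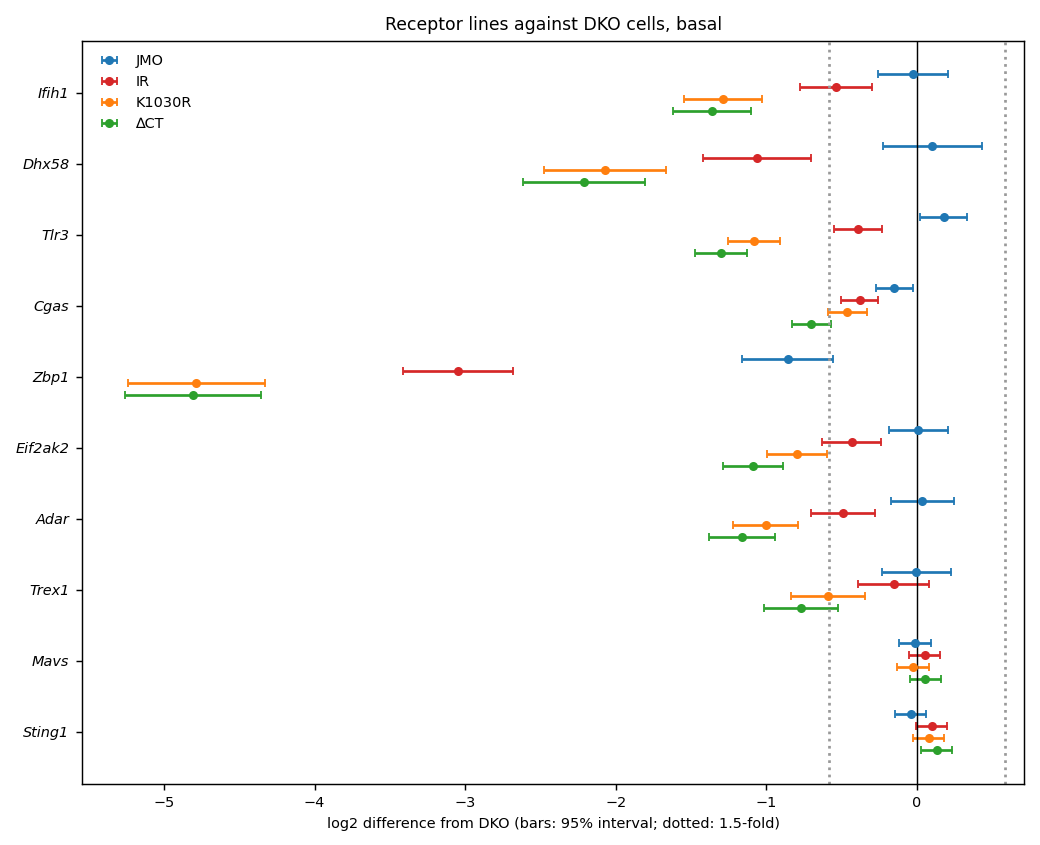
Log2 difference from DKO cells in the basal state (horizontal axis) for each gene (vertical axis) and receptor line, with bars for the 95% interval of the edgeR fit and dotted lines at 1.5-fold. JMO intervals reach or lie near 0 for all genes but *Zbp1* (-0.86), while IR, K1030R, and ∆CT points step to the left for all genes but *Mavs* and *Sting1*.

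Counted over the 10 genes, 2 were lower in IR than in DKO cells in the 1.5-fold test (*Zbp1* and *Dhx58*), where 3.29% of all genes tested were lower. The count was 1 without DKO replicate 3, IR replicate 2, or IR replicate 3, and in DESeq2 and limma voom. K1030R cells had 5 lower (*Zbp1*, *Dhx58*, *Ifih1*, *Tlr3*, and *Adar*), beside 3.25% of all genes. ∆CT cells had the same 5 and *Eif2ak2*, beside 3.91% of all genes, and 7 genes passed without ∆CT replicate 3. By that test 0 were higher in IR, K1030R, or ∆CT cells, beside 3.6%, 2.04%, and 2.38% of all genes. With no minimum fold, 7, 8, and 8 of the 10 were lower in IR, K1030R, and ∆CT cells, but this test called 24.1%, 20.4%, and 22.9% of all genes lower. The median log2 difference of the 10 was -0.41 for IR, -0.90 for K1030R, and -1.12 for ∆CT, where the median over all genes was 0.01 in each. These comparisons use the same 3 DKO libraries. The summed leukocyte markers were lower than in DKO cells (3.7 to 4.82 CPM) in every basal receptor line, JMO included (3.01 to 3.57). With insulin the sum was 3.9 to 4.73 CPM for IR, 4.1 to 4.57 for ∆CT, 3.44 to 3.88 for JMO, and 2.42 to 3.08 for K1030R. *Cd68*, the most abundant of these markers, averaged 3.13 CPM in DKO and 1.95 to 2.14 in the basal receptor lines. *Ptprc* averaged 0.167 CPM in DKO and 0.115 to 0.323 in those lines. The part of the leukocyte markers in the counts was not tested.

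In JMO against DKO cells, edgeR's 1.5-fold test called 0 of the 10 genes, beside 2.11% of all genes, and so did DESeq2 and limma voom. With no minimum fold, *Zbp1* and *Cgas* were lower, beside 17.4% of all genes, and 3 of the 10 had an unadjusted p under 0.05. The median log2 difference of the 10 was -0.01. A fit of JMO and DKO libraries alone called 1 gene in the 1.5-fold test.

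JMO cells were then set against each line that keeps the larger intracellular part. Compared with IR cells, 2 genes were higher in the 1.5-fold test, beside 2.65% of all genes: *Zbp1* (4.56-fold, log2 2.19, edgeR adjusted p = 2.14e-09) and *Dhx58* (2.24-fold, log2 1.16, adjusted p = 1.67e-05). Compared with K1030R cells, 5 were higher, beside 2.79% of all genes, and compared with ∆CT cells 6, beside 3.42%. *Zbp1* was 15.2-fold above K1030R and 15.4-fold above ∆CT cells, and *Dhx58* 4.5-fold and 4.97-fold. Without ∆CT replicate 3 the count against ∆CT was again 6, and the log2 difference of JMO from ∆CT cells went from 3.95 to 4.73 for *Zbp1*, from 2.31 to 2.71 for *Dhx58*, from 1.34 to 1.55 for *Ifih1*, and from 1.48 to 1.63 for *Tlr3*. It was 1.36 for *Adar*, 1.25 for *Eif2ak2*, and 0.82 for *Trex1* there. Against IR cells the count was 1 in DESeq2. *Sting1* went the other way by a little, and was 1.1-fold lower in JMO than in IR cells (log2 -0.14, adjusted p = 0.0215) and 1.13-fold lower than in ∆CT cells (log2 -0.17, adjusted p = 0.00525). The first call was lost without IR replicate 2 or JMO replicate 2 (highest adjusted p = 0.17) and in DESeq2, and the second without ∆CT replicate 1 or JMO replicate 2 (highest adjusted p = 0.0607).

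The insulin libraries give the same comparisons in other dishes of the same lines. There, JMO cells were higher than IR cells for 2 of the 10 genes in the 1.5-fold test, beside 2.62% of all genes, than K1030R cells for 6, beside 3.04%, and than ∆CT cells for 6, beside 3.17%. The first count was 1 without IR replicate 2, IR replicate 3, or JMO replicate 3 with insulin. *Zbp1* was at 18.2, 18.2, and 24 CPM in insulin-treated JMO cells. It was at 4.14, 3.72, and 3.55 CPM in IR, 1.9, 1.5, and 1.8 CPM in K1030R, and 0.826 and 0.887 CPM in ∆CT cells with insulin. JMO libraries stood above all the others, by 5.27-fold (log2 2.40, edgeR adjusted p = 7.18e-10), 11.6-fold (log2 3.53, adjusted p = 1.64e-11), and 23.2-fold (log2 4.54, adjusted p = 3.11e-11). *Dhx58* was 2.16-fold, 4.35-fold, and 5.69-fold higher in JMO than in IR, K1030R, and ∆CT cells with insulin.

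When the average of the 3 lines IR, K1030R, and ∆CT was set against that of DKO and JMO cells, 6 of the 10 genes were lower in the 1.5-fold test, beside 3.63% of all genes: *Zbp1* (log2 -3.78), *Dhx58* (log2 -1.83), *Ifih1* (log2 -1.05), *Tlr3* (log2 -1.01), *Adar* (log2 -0.90), and *Eif2ak2* (log2 -0.78, adjusted p of that test = 0.0107). For 7 genes, these 6 and *Cgas*, all 9 libraries of the first 3 lines lay below all 6 of the others, as they did for 7.79% of all genes. *Trex1* was 1.42-fold lower (log2 -0.50, edgeR adjusted p = 2.05e-06) with overlapping libraries, and *Sting1* 1.09-fold higher (log2 0.12, adjusted p = 0.00162), also with overlap. *Mavs* differed by 0.03, with an interval from -0.04 to 0.10. Without ∆CT replicate 3 the same 6 genes passed, with log2 differences of -4.04 for *Zbp1*, -1.96 for *Dhx58*, -1.12 for *Ifih1*, -1.06 for *Tlr3*, -0.96 for *Adar*, and -0.83 for *Eif2ak2*. By size of difference over all 15402 genes, *Zbp1* held place 36 from the lowest.

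The 3 lines with the larger intracellular part were not alike. In K1030R against IR cells, 7 of the 10 genes were lower with no minimum fold, beside 16.3% of all genes, and 1 in the 1.5-fold test, beside 0.857%. That gene was *Zbp1* (3.33-fold, log2 -1.74, edgeR adjusted p = 7.62e-05), and its call in the 1.5-fold test was lost without K1030R replicate 1 or 3. *Dhx58* was 2.01-fold lower (log2 -1.01, adjusted p = 0.00108), *Ifih1* 1.68-fold (log2 -0.75, adjusted p = 0.000158), and *Tlr3* 1.61-fold (log2 -0.69, adjusted p = 1.4e-06). K1030R libraries lay wholly below IR libraries for each of these. The same held for *Cgas*, which was not called (log2 -0.08, edgeR adjusted p = 0.38), so such separation alone shows little. The share of all genes with such separation between these lines is not given here.

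In ∆CT against IR cells, 8 of the 10 genes were lower with no minimum fold, beside 14.8% of all genes. In the 1.5-fold test there were 2, *Zbp1* (3.39-fold, log2 -1.76, edgeR adjusted p = 7.03e-05) and *Tlr3* (1.88-fold, log2 -0.91, adjusted p = 4.64e-08), beside 0.675% of all genes. Without ∆CT replicate 3 these log2 differences were -2.54 and -1.06. The count was then 4, with *Ifih1* (log2 -1.04) and *Dhx58* (log2 -1.55) added. It was 0 without ∆CT replicate 1, ∆CT replicate 2, or IR replicate 2. Without IR replicate 1 or 3 it was 1.

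Few differences were called between ∆CT and K1030R cells. Of the 10 genes, 0 passed the 1.5-fold test, beside 0.039% of all genes, and with no minimum fold only *Cgas* was called (1.18-fold lower in ∆CT, log2 -0.24, edgeR adjusted p = 0.0354), beside 3.43% of all genes. That call was lost in DESeq2, in a model of only these groups, and without any 1 of the 5 libraries other than ∆CT replicate 3 (highest adjusted p = 0.316). The intervals were wide for *Zbp1* (-0.79 to 0.74) and *Dhx58* (-0.64 to 0.36). At an unadjusted p under 0.05 there were 3 genes. Without ∆CT replicate 3, 4 genes were called lower in ∆CT cells, *Cgas* (log2 -0.33, adjusted p = 0.00281), *Tlr3* (log2 -0.37, adjusted p = 0.00221), *Eif2ak2* (log2 -0.44, adjusted p = 0.00253), and *Adar* (log2 -0.32, adjusted p = 0.0479).

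After insulin for 15 min, 0 of the 10 genes were called in any line by edgeR with no minimum fold, a test that called 1.87% (IR), 0.156% (K1030R), 1.01% (∆CT), and 0.364% (JMO) of all genes. DESeq2 and limma voom also called 0. At an unadjusted p under 0.05 there were 0 in IR, K1030R, and ∆CT cells and 1 in JMO cells, *Cgas*, which had 40.1, 45.8, and 47.2 CPM with insulin (log2 0.15, edgeR adjusted p = 0.545) and overlapped with its basal libraries. With no filter on low counts, *Ifih1* was called lower in ∆CT cells (log2 -0.26, adjusted p = 0.00204). *Ifih1* had 28.6 and 28.7 CPM in ∆CT cells with insulin, below all 3 basal libraries, but without ∆CT basal replicate 3 the log2 difference was -0.06 (adjusted p = 0.899).

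**Figure D3:**
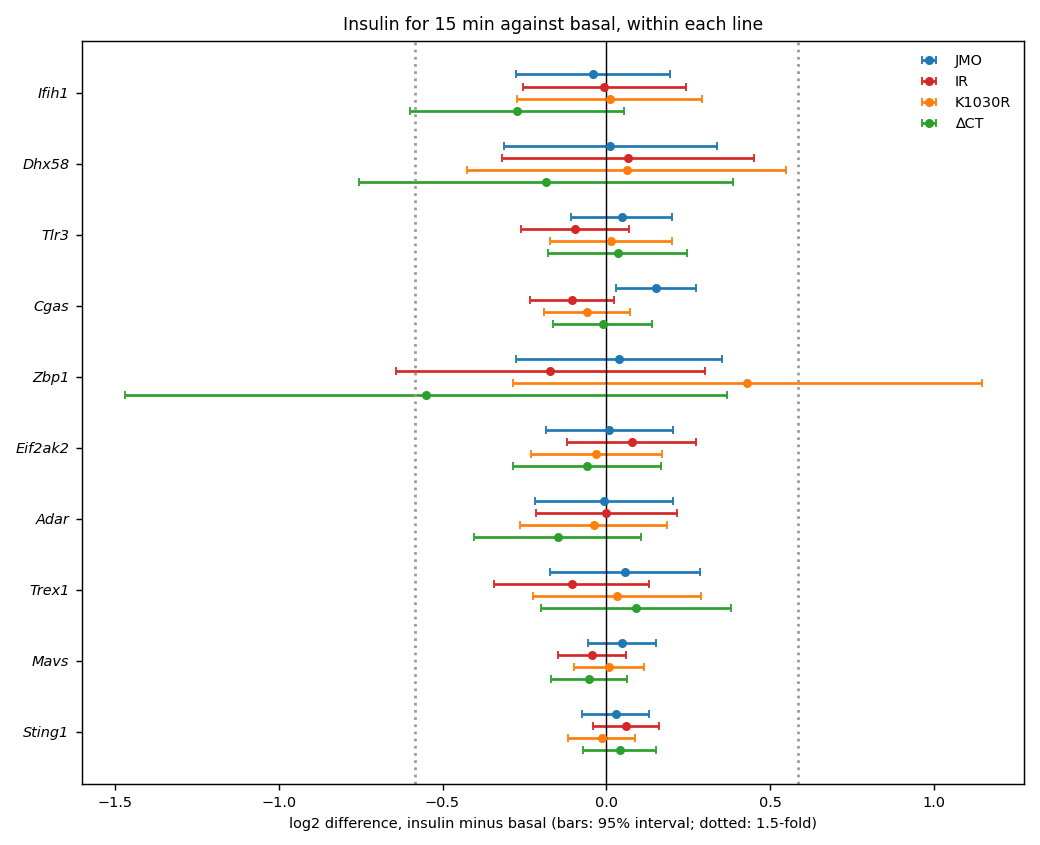
Log2 difference between insulin and basal libraries (horizontal axis) within each line, by gene (vertical axis), with bars for the 95% interval and dotted lines at 1.5-fold. Intervals for all genes but *Dhx58* and *Zbp1* stay between -0.34 and 0.29 in IR, K1030R, and JMO cells, and the widest is that of *Zbp1* in ∆CT cells (-1.47 to 0.37).

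Leaving out *Dhx58* and *Zbp1*, the 95% intervals of the insulin effect lay, on the log2 scale, within -0.34 to 0.27 for IR, -0.27 to 0.29 for K1030R, -0.60 to 0.38 for ∆CT, and -0.28 to 0.29 for JMO. *Dhx58* had intervals from -0.32 to 0.45 for IR, -0.43 to 0.55 for K1030R, -0.76 to 0.39 for ∆CT, and -0.31 to 0.34 for JMO. Those of *Zbp1* ran from -0.64 to 0.30 for IR, -0.29 to 1.14 for K1030R, and -0.28 to 0.35 for JMO. In ∆CT cells *Zbp1* had an interval from -1.47 to 0.37 and, without basal ∆CT replicate 3, from -0.485 to 0.951. The insulin effect of K1030R, ∆CT, or JMO cells minus that of IR cells was called for 0 of the 10 genes by edgeR, DESeq2, and limma voom, beside 0.37%, 0.00649%, and 0.279% of all genes. At an unadjusted p under 0.05 there were 0, 0, and 1.

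Within groups, 6 of the sensor genes deviated together from library to library. After the group mean was removed, the log2 CPM of *Ifih1*, *Dhx58*, *Tlr3*, *Zbp1*, *Eif2ak2*, and *Adar* had pairwise correlations of 0.78 to 0.96 over the 26 libraries, with *Dhx58* and *Adar* the closest pair. *Cgas* was tied to these 6 at 0.55 to 0.78, *Trex1* at 0.12 to 0.33, *Sting1* at -0.05 to 0.13, and *Mavs* at -0.37 to -0.17. The genes of a library share its depth, scaling, and dish, so these values are a description. They rest in part on ∆CT basal replicate 3, where *Zbp1* lay 1.06 above its group mean. JMO replicate 3 with insulin had a median of 0.16 above its group mean over the 10 genes and K1030R replicate 1 with insulin 0.11, with 9 of the 10 above the mean in each.

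Over the 9 group means of log2 CPM, each sensor gene was compared with all genes outside the 10 for likeness of pattern. Only genes whose group means spanned at least 1 on the log2 scale were considered. *Ifih1* was closest to *Ifit1* (r = 0.997), *Parp9*, and *Trim12c*, *Dhx58* to *Ifi44* (r = 0.999), *Gbp3*, and *Tap1*, and *Tlr3* to *Ifi44* (r = 0.997), *Tap1*, and *Bst2*. *Zbp1* was closest to *H2-T23* (r = 0.996), *Oas3*, and *Oasl1*, *Eif2ak2* to *Herc6* (r = 0.998), *Rnf213*, and *Prelp*, and *Adar* to *Gbp3* (r = 0.998), *Herc6*, and *Ifi44*. For *Cgas* these were *Ifi205* (r = 0.986), *Ifi211*, and *Ccl5*, and for *Trex1* they were *Parp10* (r = 0.993), *Parp12*, and *Mx2*. *Mavs* and *Sting1* spanned only 0.09 and 0.22 over the group means, so their closest genes say little. With only 9 points, many genes reach such values, and insulin and basal means of a line are nearly alike.

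Of 18 other nucleic acid sensors listed, 12 were tested, and in the contrast of IR, K1030R, and ∆CT against DKO and JMO cells 8 were lower and 0 higher in the 1.5-fold test, beside 3.63% and 2.05% of all genes, with a median log2 difference of -1.22, beside -0.84 for the 10 and 0.01 for all genes. The 4 largest differences were those of *Ddx60*, a helicase that aids RIG-I signaling (log2 -3.14, edgeR adjusted p = 1.59e-25), *Ifi205* (log2 -2.61), the inflammasome DNA sensor *Aim2* (log2 -2.09), and *Mndal* (log2 -1.85). *Ddx60* averaged 18.3 ± 0.875 CPM in DKO (SD, n = 3) and 14.9 ± 1.47 CPM in JMO cells. The means were 4.45 ± 0.301 CPM for IR, 1.47 ± 0.239 for K1030R, and 0.998 ± 0.261 for ∆CT. *Aim2* was scarce everywhere, with 2.37 ± 0.335 CPM in DKO and 0.348 ± 0.149 CPM in K1030R cells. *Ifi205*, *Mndal*, and their neighbors form a family of near copies, so that reads may have been split between them.

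**Figure D4:**
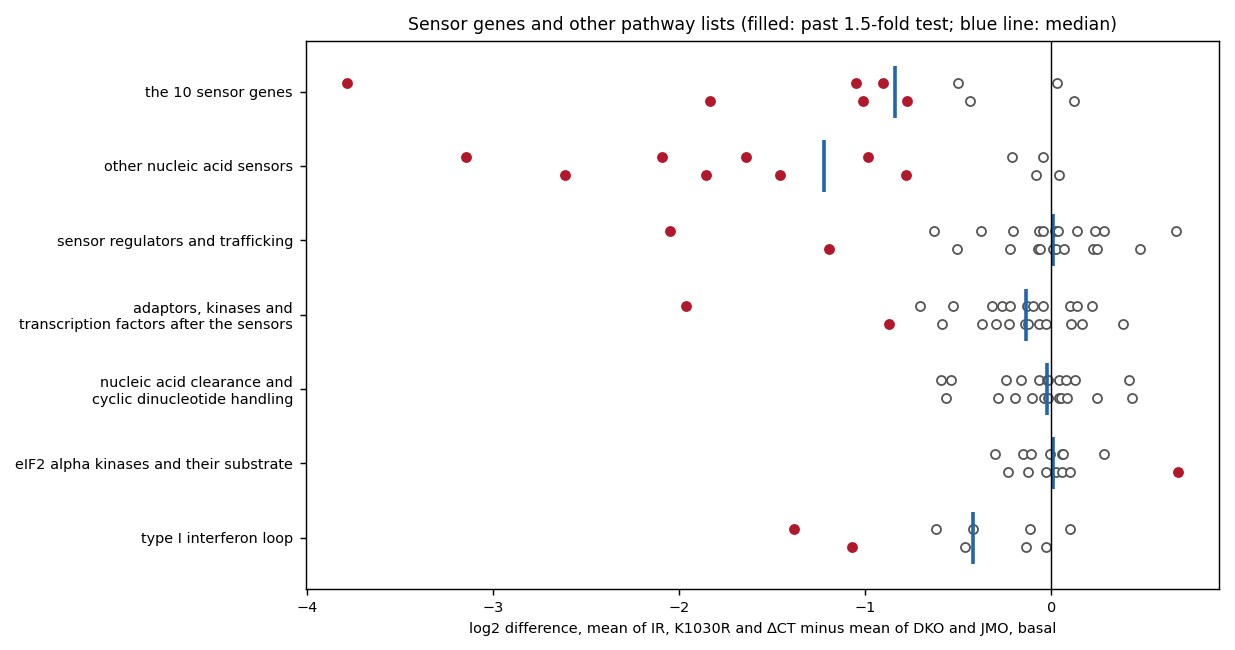
Log2 difference, the basal average of the IR, K1030R, and ∆CT lines minus that of DKO and JMO (horizontal axis), for each tested gene of the 10 and of 6 other lists (vertical axis), with filled points for genes that passed the 1.5-fold test and blue lines for list medians. Sensor genes lie to the left, with medians of -0.84 and -1.22, while regulators, clearance genes, and eIF2 alpha kinases center near 0.

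By list median, the genes above and below the sensors moved less than the sensor genes. Of 24 listed regulators and trafficking factors, 23 were tested and 2 were lower, beside 3.63% of all genes: *Nlrc5* (log2 -2.05, edgeR adjusted p = 8.2e-19), which drives MHC class I transcription, and the ubiquitin ligase *Rnf125* (log2 -1.19, adjusted p = 2.14e-11). The median of that list was 0.01. With no minimum fold, 8 of these 23 were lower and 6 higher, beside 25.6% and 26.7% of all genes. Of 27 adaptors, kinases, and transcription factors, 24 were tested and, beside the same 3.63%, 2 were lower, *Irf7* (log2 -1.96, adjusted p = 9.42e-12) and *Irf5* (log2 -0.87, adjusted p = 2.13e-10), with a list median of -0.14. Small differences were more common here, as 15 of these 24 were lower and 4 higher with no minimum fold, beside 25.6% and 26.7% of all genes. *Irf7*, the interferon-induced factor that amplifies interferon transcription, averaged 148 ± 21 CPM in DKO (SD, n = 3) and 140 ± 10.3 in JMO cells. It averaged 59.9 ± 4.57 CPM for IR, 32.4 ± 2.22 for K1030R, and 25.8 ± 11 for ∆CT.

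Of 26 listed genes for clearance of nucleic acid and handling of cyclic dinucleotides, 22 were tested and 0 were called in the 1.5-fold test by edgeR, and with no minimum fold 8 were lower and 2 higher, beside 25.6% and 26.7% of all genes. The 14 listed genes around eIF2 alpha, on which PKR acts, were all tested and gave 1 that was higher, *Atf4* (log2 0.68, edgeR adjusted p = 2.38e-18), beside 2.05% of all genes, and 0 lower. With no minimum fold, 5 of these 14 were lower and 4 higher, beside 25.6% and 26.7% of all genes. *Atf4* averaged 149 ± 5.53 CPM in DKO (SD, n = 3) and 135 ± 6.16 in JMO cells, below the 210 ± 7.63 CPM of IR, 236 ± 6.56 of K1030R, and 236 ± 20.1 of ∆CT cells. In the interferon loop, 9 of 15 genes were tested and 2 were lower, again beside 3.63% of all genes, the interferon brake *Usp18* (log2 -1.38, adjusted p = 8.81e-10) and the interferon signal transducer *Stat2* (log2 -1.07, adjusted p = 2.98e-10). The median of these 9 was -0.42, and with no minimum fold 7 were lower and 1 higher, beside 25.6% and 26.7% of all genes.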

How the data were processed

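RNA was captured on oligo-dT beads and sequenced as 100-bp reverse-stranded single-end reads. Per the study's methods, the authors trimmed reads with fastp, used kallisto to assign them to Ensembl version 98 transcripts of the mouse, and used tximport to obtain gene sums. Whether the strand was used in that step is not given in the sources used here. The deposited values are expected counts per gene and library, neither filtered nor scaled, of which 79.9% are whole numbers. They were rounded for the tests.

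Of 52962 genes, the 15402 above 0.5 CPM in 4 or more libraries were kept, and TMM factors were computed (edgeR 4.0.16, R 4.3.3). All 26 libraries entered a single quasi-likelihood fit (robust option) with a mean for every group, from which 21 comparisons were taken. Line comparisons were called with glmTreat at a minimum fold of 1.5, insulin comparisons with no minimum fold, both at a Benjamini-Hochberg adjusted p under 0.05. CPM are TMM-scaled. Log2 CPM for deviations and patterns used a prior count of 2. The biological coefficient of variation was 4.44%. The procedure was tested on simulated data.

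All 10 genes are reported in full. From 6 other lists, at most 4 genes with the largest difference among those called are named, and for each of the 10 genes the 3 with the closest pattern. The 10 genes and the lists were chosen with earlier results of these data known. Libraries of different groups with the same replicate number showed no pairing (median residual correlation -0.00111 over 100 pairs, from -0.108 to 0.0959), so no block was used. The alternatives were DESeq2 1.42.0, limma voom (3.58.1), RLE scaling, counts left unrounded, no filter or a filter of 10 counts in 4 libraries, no minimum fold or 2-fold, models of only the groups compared, the replicate block, and each library left out. Coordinates of genes follow GENCODE mouse release 21 (GRCm38). Of the interferon loop list, 1 gene is not reported here and was left out of its counts. Proteomic and phosphoproteomic data were not analysed here.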

Additional observations from a re-analysis of the deposited data

How the results depend on the processing

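Counts of the 10 genes called were recomputed under each alternative, and 303 of 353 stayed within 1.5 times the value in the report. Many of these were counts of 0 that stayed 0, as in the insulin comparisons, so the share says less about the other counts. K1030R against IR and ∆CT against IR each moved further in 5 of 10 alternatives, leaving out of libraries aside. For IR against DKO cells (2), DESeq2, limma voom, and a 2-fold minimum each gave 1 and no minimum fold 7. For K1030R against DKO (5), a 2-fold minimum gave 2 and no minimum 8. For ∆CT against DKO (6), a model of only those groups gave 3. For JMO against DKO (0), no filter and only those groups gave 1, and no minimum 2. JMO against IR (2) gave 1 in DESeq2 and at 2-fold and 8 with no minimum. JMO against K1030R (5) gave 3 at 2-fold and 8 with no minimum, and JMO against ∆CT (6) gave 3 at 2-fold and with only those groups. K1030R against IR (1) gave 0 in limma voom and at 2-fold, 3 with no filter, 7 with no minimum, and 2 with only those groups. ∆CT against IR (2) gave 1 in limma voom, 0 at 2-fold and with only those groups, 4 with no filter, and 8 with no minimum. ∆CT against K1030R (0) gave 1 with no minimum. The contrast of IR, K1030R, and ∆CT with DKO and JMO (6) gave 2 at 2-fold. With insulin, JMO against IR (2) gave 1 in DESeq2, limma voom, at 2-fold, and with only those groups and 9 with no minimum, JMO against K1030R (6) gave 3 at 2-fold, and insulin in ∆CT cells (0) gave 1 with no filter. The cause of these shifts was not tested, apart from the changed fold. Leaving out 1 library gave 1 to 2 for IR against DKO, 0 to 1 for K1030R against IR, 0 to 4 for ∆CT against IR, and 1 to 2 for JMO against IR with insulin.

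Log2 differences changed sign only where they were near 0 and not called. With 1 library left out, JMO minus DKO ranged from -0.071 to 0.031 for *Ifih1*, -0.032 to 0.009 for *Mavs*, -0.085 to 0.004 for *Sting1*, -0.023 to 0.044 for *Eif2ak2*, -0.006 to 0.108 for *Adar*, and -0.082 to 0.073 for *Trex1*. *Mavs* ranged from -0.073 to 0.005 for K1030R minus DKO, -0.015 to 0.061 for JMO minus K1030R, -0.034 to 0.044 for ∆CT minus IR, and with insulin -0.016 to 0.084 for JMO minus IR and -0.004 to 0.059 for JMO minus ∆CT, which was -0.001 with no filter. *Sting1* ranged from -0.065 to 0.016 for K1030R minus IR and -0.005 to 0.07 for ∆CT minus IR. For ∆CT minus K1030R, *Ifih1* ranged from -0.287 to 0.042, *Dhx58* from -0.537 to 0.034, and *Zbp1* from -0.808 to 0.321.

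Equal replicate numbers did not pair the libraries. With the replicate block, the 21 counts stayed within 1.5 times, for example 6 for ∆CT against DKO, and *Tlr3* became called higher in JMO than in DKO cells (log2 0.18, edgeR adjusted p = 0.0169) and *Sting1* lower in JMO than in K1030R cells (log2 -0.12, adjusted p = 0.0486). Basal libraries held 13 to 46 *Zbp1* counts in ∆CT and 17 to 33 in K1030R cells.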

Other observations

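The interferon genes at the end of the sensing routes were too scarce to test. *Ifnb1* had 49 counts over all 26 libraries, of which 14 fell in the 3 DKO libraries, 14 in the basal and 12 in the insulin-treated JMO libraries. Basal IR cells had 0, basal K1030R cells 4, and basal ∆CT cells 1. *Ifna4* had 31 counts, with 5 in DKO, 8 in basal JMO, and 17 in insulin-treated JMO cells, and 1 in all other groups together. A count of 0 in a group allows up to 3 counts. No count was found for *Ifna1*, *Ifnl2*, or *Ifnl3*, and 4 for *Ifna2*.

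Some other endosomal and inflammasome genes were near the floor as well. *Tlr7* had 63 counts over all libraries, *Tlr9* 11, and *Tlr8* 0, and the inflammasome genes *Pycard* and *Casp1* had 98 and 87.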
